A study of Rattus norvegicus with 24 samples.

Results

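The thyroid of rats on an iodine-deficient diet was set directly against the thyroid of rats given perchlorate, both at day 14, to ask where these 2 ways of depriving the gland of iodide left different transcript levels. The comparison took the 3 arrays of the diet at day 14 and the 3 arrays of perchlorate at day 14, which is 6 of the 24 arrays of the series, and no control array entered the difference. Samples were chosen by their labels alone. All came from the thyroid of adult male Sprague-Dawley rats, an outbred laboratory strain, and each was hybridised to an Affymetrix expression array. The diet rats had eaten the iodine-deficient diet with normal water for 2 months and 14 days (replicates 32, 33 and 34). The perchlorate rats had eaten a normal diet for 2 months and 14 days and had drunk water with 95 mg of potassium perchlorate per liter for the last 14 days (replicates 39, 40 and 42). The 2 groups therefore differed in how long iodide had been short as well as in how, and these cannot be told apart. At day 14 the series also held rats on the diet with perchlorate (replicates 27, 29 and 30) and controls on normal diet and water (replicates 43, 44 and 47). They are given beside the comparison, as are the same groups at day 1, when the diet had lasted 2 months and 1 day and perchlorate 1 day. Whether the 3 samples of a group were separate animals is not stated in the labels, and the p-values therefore rest on the scatter of these samples, part of which may be technical.

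Thyroid follicular cells take up iodide from blood through the sodium iodide symporter, attach it to thyroglobulin and release thyroid hormone from it. Perchlorate competes with iodide at the symporter, whereas a deficient diet lowers the iodide that reaches it. Either way less hormone is made, the pituitary releases more thyrotropin, and thyrotropin acting through cAMP raises symporter expression, follicular cell division and the growth of the capillary bed, which is how goiter forms. Itih3, one of the inter-alpha-inhibitor heavy chains that become attached to hyaluronan, and Slc5a5, the symporter gene, carry much of what follows. Oxct1, the mitochondrial enzyme with which tissues other than liver use ketone bodies, had the smallest p of all genes. Their RefSeq promoters (GRCr8, 250 bases before to 50 after the start, 5′ to 3′ on the gene's strand) are shown so that the letters searched for motifs can be seen. The Itih3 promoter is at chr16:6123325-6123624 on the minus strand, that of Slc5a5 at chr16:18580455-18580754 on the plus strand and that of Oxct1 at chr2:54963714-54964013 on the plus strand. Capitals mark a match to the antioxidant element TGACNNNGC, and the Slc5a5 window held no match to any motif searched.
Itih3: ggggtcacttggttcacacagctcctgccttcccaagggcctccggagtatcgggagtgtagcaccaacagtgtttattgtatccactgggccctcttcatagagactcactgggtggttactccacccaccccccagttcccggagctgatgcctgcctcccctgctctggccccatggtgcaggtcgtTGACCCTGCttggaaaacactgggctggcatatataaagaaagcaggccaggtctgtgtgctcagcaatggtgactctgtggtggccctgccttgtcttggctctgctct
Slc5a5: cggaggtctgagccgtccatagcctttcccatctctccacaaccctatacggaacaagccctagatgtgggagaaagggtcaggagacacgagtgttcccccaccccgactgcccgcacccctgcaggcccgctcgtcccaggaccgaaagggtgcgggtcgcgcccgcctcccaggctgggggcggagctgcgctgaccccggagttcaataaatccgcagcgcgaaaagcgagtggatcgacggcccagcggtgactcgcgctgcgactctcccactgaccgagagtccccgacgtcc
Oxct1: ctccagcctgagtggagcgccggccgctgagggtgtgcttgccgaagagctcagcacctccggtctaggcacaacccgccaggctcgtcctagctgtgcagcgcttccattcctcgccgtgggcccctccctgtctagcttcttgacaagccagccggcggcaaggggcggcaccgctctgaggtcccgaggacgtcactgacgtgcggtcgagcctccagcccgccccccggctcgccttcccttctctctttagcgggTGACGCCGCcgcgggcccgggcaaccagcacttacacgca

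No probe set passed the test between the diet and perchlorate at day 14. With limma, 0 of 31042 probe sets had an adjusted p under 0.05 (0%), and the smallest adjusted p was 0.184. At an unadjusted p under 0.05 there were 2367 probe sets (7.63%), 1150 higher and 1217 lower with the diet. The difference is given throughout as diet minus perchlorate in log2 units, where 1 unit is a doubling. Over 14217 genes, each represented by its brightest probe set, the median size of the difference was 0.14, and 82 genes differed by more than 1. The median standard error was 0.17, so with 3 arrays a side differences near the median size could not be told from 0. Over all probe sets the arrays of the 2 groups resembled each other as closely as arrays of 1 group did. Pearson correlations between a diet and a perchlorate array ran from 0.978 to 0.983, against 0.980 to 0.982 within the diet and 0.978 to 0.983 within perchlorate. Correlations with the day 14 control arrays were lower for both, 0.974 to 0.978 for the diet and 0.965 to 0.975 for perchlorate.

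None of the 6 arrays stood apart in these measures. Their 2% trimmed mean intensities lay between 418 and 483 before normalization. The 2 arrays of the series that did stand apart, perchlorate replicate 18 and control replicate 22, were both of day 1. They enter the results on day 1 and between the days, and the quantile normalization that all 24 arrays share. Markers of the follicular cell were high in all 6 arrays: the log2 signal, which is log2 of the intensity plus 16, lay between 13.65 and 13.90 for Tg, between 12.19 and 12.52 for Pax8 and between 12.77 and 13.24 for Foxe1. Markers of neighbouring tissue were high as well. Pth, the parathyroid hormone gene, lay between 13.78 and 13.91 and Calca, the calcitonin gene of C cells, between 13.22 and 13.64 in the 6 arrays. Skeletal muscle genes were high in diet replicate 32 and perchlorate replicate 42, with mean log2 signals over 18 genes of 8.88 and 9.15, and lay between 5.71 and 5.80 in the other 4 arrays. In whole glands fewer cells of a type and less RNA per cell cannot be told apart.

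Itih3 was among the genes furthest apart, and lower with the diet. Its log2 signal was 11.20, 11.65 and 10.25 in the diet arrays, against 12.58, 12.20 and 13.08 in the perchlorate arrays. All 3 diet arrays lay below all 3 perchlorate arrays, with diet replicate 33 and perchlorate replicate 40 the nearest pair. The difference was -1.59 (95% confidence interval -2.21 to -0.97, adjusted p = 0.212), a level 3.01-fold lower with the diet that did not pass the test. The diet with perchlorate stood at 13.28 ± 0.10 and controls at 7.23 ± 0.04 (SD, n = 3 each), so both treatments lay far above the control and perchlorate nearer to the combined treatment. Aspg, an asparaginase gene chosen after its values were seen, had a difference of 0.00 (-0.59 to 0.59). It stood at 7.64, 9.01 and 8.0 in the diet arrays, against 8.07, 8.36 and 8.21 in the perchlorate arrays and 4.67 on average in controls. Here the 2 treatments overlapped fully.

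Among the genes of iodide transport and hormone synthesis, Slc5a5 itself was lower with the diet in every array. It read 11.85, 12.23 and 11.79 with the diet, against 12.41, 12.65 and 12.33 with perchlorate. The groups did not overlap, but the gap between diet replicate 33 and perchlorate replicate 42 was small, and the difference of -0.51 (-0.86 to -0.16, adjusted p = 0.441) did not pass. The combined treatment averaged 12.65 ± 0.17 and controls 10.95 ± 0.30, so that the diet lay about 1.01 above the control and perchlorate 1.52 above it. Of 23 genes listed for this pathway, 16 were measured. Of the 16, 0 had diet arrays all above the perchlorate arrays, against 6.43% of all genes, and 3 had them all below, against 7.42% of all genes. The other 2 of those 3 were potassium channel subunits. Kcnq1, the pore of a potassium channel of the follicular cell membrane, was at -0.62 (-1.21 to -0.03), and Kcne3, a subunit that can pair with it, at -1.06 (-1.85 to -0.27), with its other probe set at 0.20 and overlapping. Kcne2, a related gene, overlapped on each of its probe sets, at 0.09, -0.16 and -0.10.

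The genes that turn iodide into hormone were close to 0. Tg, the protein on which hormone is built, read 13.69, 13.65 and 13.65 with the diet, against 13.90, 13.69 and 13.87 with perchlorate, a difference of -0.15 (-0.32 to 0.01). A second Tg probe set of similar brightness had the opposite sign, at 0.15 (SE 0.11), and both overlapped. Duox2, the oxidase that supplies hydrogen peroxide, differed by -0.01 (-0.28 to 0.26), and Iyd, which recovers iodide from unused tyrosines, by 0.02 (-0.19 to 0.24). For Duox2 and Iyd the intervals reach no further than -0.28 below 0 and 0.26 above it. Tshr, the thyrotropin receptor, was less well measured, at -0.48 (-1.08 to 0.12), with overlapping arrays. Dio1, a deiodinase that makes the active hormone from thyroxine, had the highest value of the pathway at 0.69 (-0.15 to 1.53). It read 11.50, 11.70 and 10.62 with the diet, against 10.27, 10.91 and 10.57 with perchlorate, so diet replicate 34 lay inside the perchlorate range. The thyroid transcription factor genes Pax8 (-0.05), Nkx2-1 (0.15) and Foxe1 (0.10) all had overlapping arrays. Their list of 8 measured genes had a median of -0.07 and a lowest value of -1.12, and 0 of the 8 separated the groups. The mean log2 signal of that list did not overlap, at 10.85 to 10.97 with the diet and 11.03 to 11.14 with perchlorate. The median of the 16 genes of iodide transport and hormone synthesis was -0.03, beside -0.01 over all genes. Their mean log2 signal was 8.86, 8.94 and 8.85 in the diet arrays, against 8.98, 9.05 and 9.02 in the perchlorate arrays, without overlap. In controls that mean was 8.79 to 8.83.

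**Figure D1:**
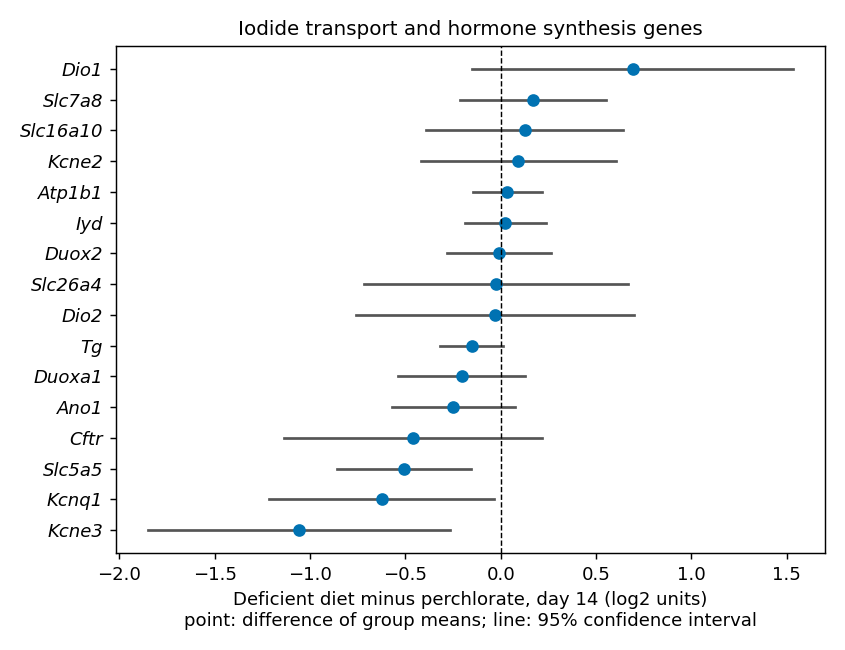
Difference between the deficient diet and perchlorate at day 14 for the 16 measured genes of iodide transport and hormone synthesis, in log2 units on the horizontal axis, with points for the difference of means of 3 arrays each and lines for 95% confidence intervals. Slc5a5, Kcnq1 and Kcne3 have intervals wholly below 0, and Tg, Duox2 and Iyd lie close to it.

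Signalling below the thyrotropin receptor gave a share of separated genes near that of all genes. Of 26 measured genes of the receptor and cAMP list, 8 were above 0 and 18 below, with a median of -0.14 that was -0.07 without diet replicate 32. In 3 genes (11.5%, beside 7.42% of all genes) all diet arrays lay below all perchlorate arrays, and in 0 all above. Pde4b, a phosphodiesterase that breaks down cAMP, read 9.70, 9.64 and 9.73 with the diet, against 10.26, 10.06 and 10.31 with perchlorate, a difference of -0.52 (-0.74 to -0.30, adjusted p = 0.240), and its other probe set was lower too. Rgs2, which restrains signalling through G proteins, was at -0.43 (-0.70 to -0.16) and Pde4d, another phosphodiesterase, at -0.26. Of 24 immediate early genes, which respond within minutes to many stimuli, 4 (16.7%, beside 7.42% of all genes) had all diet arrays lower and 1 (4.17%, beside 6.43%) all higher. Egr1 among them read 9.82, 10.33 and 9.30 with the diet, against 10.96, 10.61 and 10.47 with perchlorate, a difference of -0.86 (-1.32 to -0.40, adjusted p = 0.300). In controls Egr1 averaged 10.19, inside the range of the diet arrays.

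Genes of dividing cells overlapped in most cases. Over 36 genes of mitosis and cytokinesis the median was -0.11, with 28 below 0 and 8 above, and near 0 without diet replicate 32 (-0.003). All diet arrays lay below in 2 genes (5.56%, beside 7.42% of all genes) and above in 0. The list's mean log2 signal was 7.73, 8.15 and 7.93 in the diet arrays, against 7.89, 8.28 and 8.06 in the perchlorate arrays and 6.53 to 7.09 in the controls, so the 2 treatments overlapped and both lay above the control range. Mki67, the common marker of cycling cells, was at 9.18, 9.73 and 9.15 with the diet, against 9.50, 9.67 and 9.47 with perchlorate, a difference of -0.20 (-0.85 to 0.46). Top2a, the topoisomerase of dividing cells, was at -0.01 (-0.63 to 0.61). In the DNA replication list 3 of 27 genes, Mcm6, Cdt1 and Mcm3, had all diet arrays below, at -0.32, -0.34 and -0.25, which is 11.1% of the list beside 7.42% of all genes. With intervals as wide as those of Mki67 and Top2a, a moderate difference in either direction could not be detected.

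The largest list-wide lean was in the extracellular matrix, toward lower values with the diet. Of 38 measured matrix genes, 32 were below 0, 17 had all diet arrays below all perchlorate arrays and 1 (P4ha3, 0.51) had all above, beside 7.42% and 6.43% of all genes. The median was -0.50, and 0 of the 38 passed the test. The mean log2 signal of the list was 8.93, 8.96 and 9.08 in the diet arrays, against 9.50, 9.11 and 9.74 in the perchlorate arrays, 9.44 to 10.05 with both and 8.41 to 8.49 in controls. The diet arrays thus lay between the controls and the perchlorate arrays, with perchlorate replicate 40 close to diet replicate 34.

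Collagen VI genes had some of the lowest values in the matrix list. Col6a3, which encodes a chain of that microfibrillar collagen, read 10.84, 10.98 and 10.72 with the diet, against 12.14, 11.34 and 12.17 with perchlorate, a difference of -1.03 (-1.50 to -0.56, adjusted p = 0.257), although its second, dim probe set was at -0.18. Col6a2 was at -1.20 (-1.81 to -0.58), lower on both of its probe sets. Of the fibrillar collagens, Col5a2 was at -0.81 (-1.25 to -0.37) on one probe set and -0.88 on the other, Col1a1 at -0.76 (-1.38 to -0.13) and Col3a1 at -0.55 (-0.85 to -0.24). Eln, the elastin gene, read 6.97, 7.07 and 7.23 with the diet, against 8.04, 7.61 and 8.83 with perchlorate, a difference of -1.07 (-1.67 to -0.47). The 4 lysyl oxidases of the list, which crosslink elastin and collagen, Lox (-0.56), Loxl1 (-0.48), Loxl2 (-0.77) and Loxl3 (-0.50), had all diet arrays below the perchlorate arrays. Vwa1, a pericellular matrix protein gene, was at -0.87 (-1.26 to -0.47). Dcn and Lum, proteoglycan genes of fibroblasts, overlapped at 0.19 and -0.22.

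Basement membrane and vessel genes leaned the same way with smaller values. In the basement membrane list 17 of 19 genes were below 0, 7 (36.8%, beside 7.42% of all genes) had all diet arrays below and 0 all above, and the median was -0.46. Nid2, a nidogen that links laminin to collagen IV, read 9.52, 9.72 and 9.50 with the diet, against 10.60, 10.21 and 10.55 with perchlorate, a difference of -0.87 (-1.23 to -0.52, adjusted p = 0.225). Col4a2 was at -0.59 (-0.95 to -0.22), Lama4, the laminin chain of vessel walls, at -0.71 (-1.16 to -0.27) and Lamc1 at -0.65 (-1.04 to -0.26). Epithelial laminin genes were near 0, with Lamb3 at -0.02 and Lama3 at 0.24. Of 20 endothelial markers 19 were below 0 and 4 (20%, beside 7.42% of all genes) had all diet arrays below, with a median of -0.26 (-0.13 without perchlorate replicate 42 and -0.40 without replicate 40). Vwf, the von Willebrand factor gene, read 9.31, 9.49 and 9.26 with the diet, against 10.51, 9.86 and 10.51 with perchlorate, a difference of -0.94 (-1.42 to -0.46). Pecam1 (-0.23) and Kdr (-0.18), further endothelial genes, overlapped.

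Angiogenic ligands and receptors were mixed in sign. Of 28 genes, 12 were above 0 and 16 below. All diet arrays lay below in 7 (25%, beside 7.42% of all genes) and above in 0 (beside 6.43% of all genes). Their median was -0.08 and ran from -0.18 without diet replicate 33 to -0.02 without diet replicate 34. Angpt2, a ligand of the endothelial receptor Tie2, read 9.43, 9.67 and 9.09 with the diet, against 10.65, 9.78 and 10.30 with perchlorate, a difference of -0.85 (-1.31 to -0.38, adjusted p = 0.300). Apln, the apelin gene, was at -0.98 (-1.65 to -0.32) and lower on both probe sets, and Notch4 was at -0.72 on one probe set of 3. Vegfb went the other way at 0.57 (0.20 to 0.94), with overlapping arrays. Markers of perivascular cells leaned lower as the endothelial markers did. All 12 smooth muscle and pericyte genes were below 0, with a median of -0.27 (-0.56 without perchlorate replicate 40 and -0.15 without replicate 39). In 2 of the 12 (16.7%, beside 7.42% of all genes) all diet arrays lay below. The list's mean log2 signal overlapped, at 7.81 to 8.10 with the diet and 7.98 to 8.61 with perchlorate. Rgs5, a pericyte marker, was at -0.79 (-1.16 to -0.43) and Tagln, an actin-binding protein of smooth muscle, at -1.0 (-1.45 to -0.55). Tagln read 9.24, 9.52 and 9.43 with the diet, against 10.76, 9.77 and 10.65 with perchlorate, and without perchlorate replicate 40 it was the single probe set called (-1.31, adjusted p = 0.0103).

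Markers of blood-derived cells had to be read array by array. Mast cell genes had a median of -0.48, with 3 of 12 (25%, beside 7.42% of all genes) having all diet arrays below. Their mean log2 signal was 7.79, 7.56 and 8.07 in the diet arrays, against 7.97, 8.12 and 8.98 in the perchlorate arrays, where replicate 42, one of the arrays high in skeletal muscle genes, was the highest. The median was -0.19 without that array, -0.27 without diet replicate 33, -0.75 without diet replicate 34 and -0.76 without perchlorate replicate 39. Tpsab1, a mast cell tryptase, read 6.79, 7.10 and 7.37 with the diet, against 7.78, 7.57 and 9.04 with perchlorate. Macrophage markers had a median of -0.25, with 1 of 19 all below, which at 5.26% is under the 7.42% of all genes, and the median was 0.00 without perchlorate replicate 42, -0.14 without diet replicate 33 and -0.39 without perchlorate replicate 40. The part that muscle tissue or cell content in replicate 42 had in these values was not tested. The median of the matrix list was -0.40 without replicate 42 and -0.62 without replicate 40, and that of the basement membrane list was -0.27 without diet replicate 34 and -0.58 without perchlorate replicate 40.

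**Figure D2:**
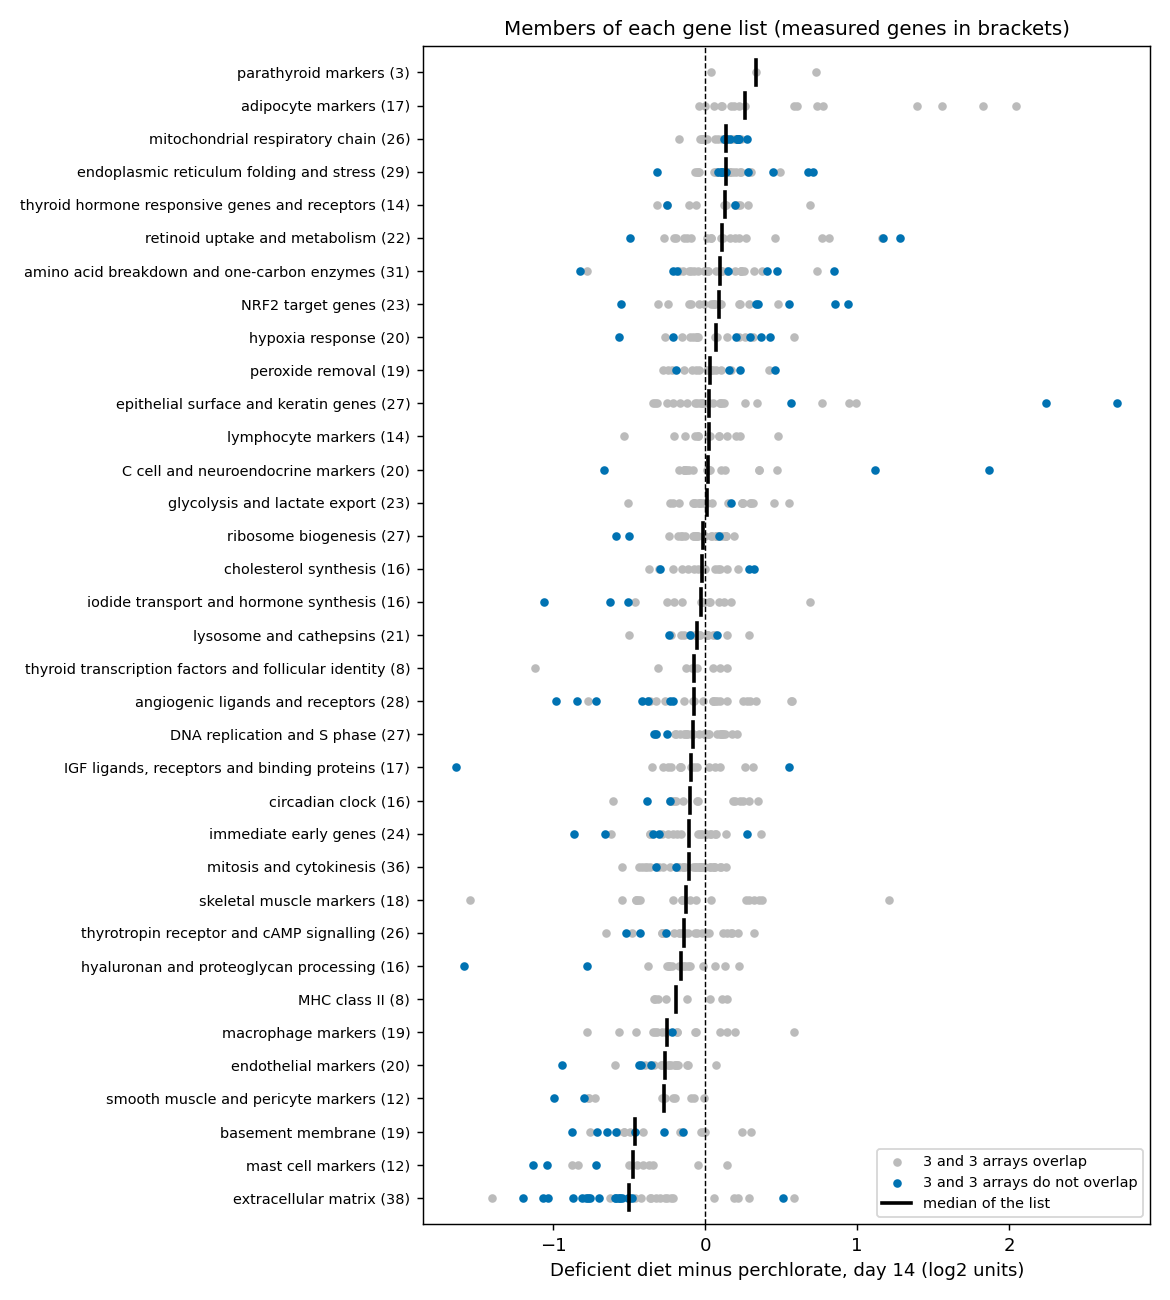
Difference between the deficient diet and perchlorate at day 14 (log2 units, horizontal axis) for each measured member of 35 gene lists, with black bars at list medians and blue points for genes whose 3 diet arrays do not overlap the 3 perchlorate arrays. The extracellular matrix list at the bottom has its median at -0.50 with 17 genes separated on the lower side, and the respiratory chain list has 11 separated on the higher side at small values.

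The 12 genes with the smallest p below 0 included several secreted or surface proteins. Cxcr4, the receptor of the chemokine Cxcl12, read 9.80, 9.77 and 9.68 with the diet, against 10.69, 10.57 and 10.48 with perchlorate, a difference of -0.83 (-1.13 to -0.52, adjusted p = 0.184). All 3 of its probe sets had diet arrays below perchlorate arrays, and the arrays of each group lay close together. Ccl21, a chemokine that draws lymphocytes and dendritic cells, read 7.62, 7.72 and 7.88 with the diet, against 8.85, 8.99 and 8.54 with perchlorate, a difference of -1.06 (-1.45 to -0.66). Ccn1, a matricellular protein induced by growth factors and stretch, was at -1.64 (-2.35 to -0.92), with perchlorate replicates 39 and 42 at 8.92 and 8.95 and replicate 40 at 7.80, against 6.60 to 7.10 in the diet arrays. Nrep, a small intracellular protein found in regenerating tissue, was at -0.77 (-1.05 to -0.49), and Htra1, a secreted serine protease, at -0.61 (-0.88 to -0.34). Acot1, which hydrolyses fatty acyl-CoA, was at -0.75 (-1.02 to -0.48). Its means were 11.40 with the diet and 12.15 with perchlorate, on either side of the control mean of 11.78.

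The remaining genes of these 12 were Hlx, a homeobox gene (-0.71), Cnn2, a calponin (-0.54), Tmem132a (-0.53), Pde4b, Nid2 and Itih3. Their adjusted p, like those of the 12 with the smallest p above 0, lay between 0.184 and 0.249, and all 24 had arrays that did not overlap, which the ranking by p favours. Cthrc1, a secreted protein of matrix-forming cells, had the lowest difference of all genes, -1.65 (-2.43 to -0.87), with 6.61, 7.31 and 7.67 in the diet arrays, against 9.09, 8.43 and 9.01 in the perchlorate arrays. It was named for its size after its values were seen.

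**Figure D3:**
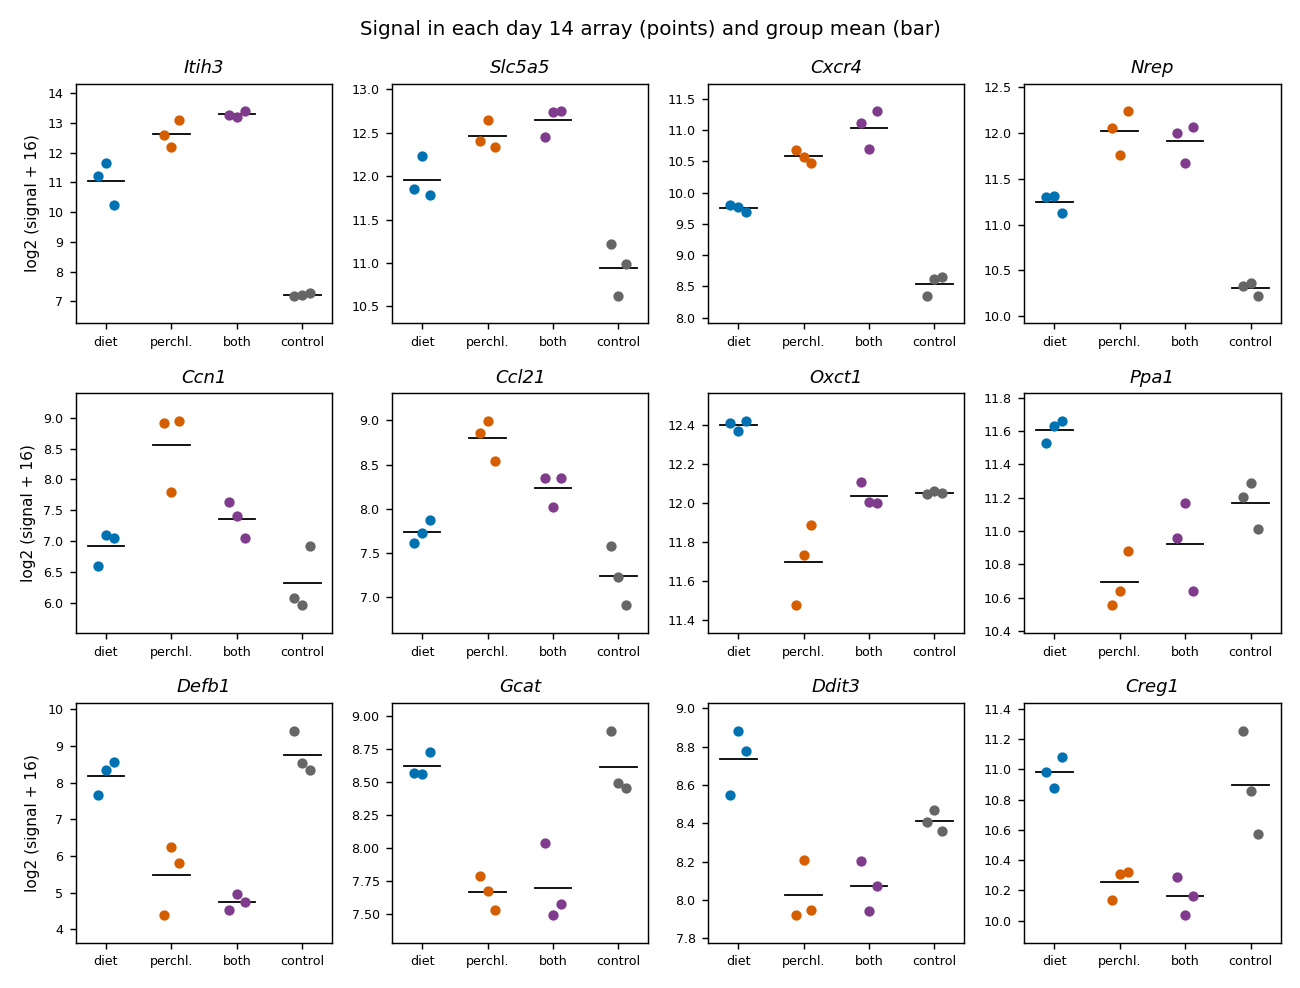
Log2 signal (intensity plus 16, vertical axis) of 12 genes in each day 14 array, for the diet, perchlorate, both together and the control, with points for arrays and bars for means of 3. In Itih3, Slc5a5, Cxcr4, Nrep, Ccn1 and Ccl21 every diet array lies below every perchlorate array, and in Oxct1, Ppa1, Defb1, Gcat, Ddit3 and Creg1 every diet array lies above.

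Among the 12 genes with the smallest p above 0 were Oxct1, Ppa1 and Gcat, which encode metabolic enzymes, beside membrane, secreted and signalling proteins. Oxct1 read 12.41, 12.37 and 12.42 with the diet, against 11.48, 11.73 and 11.89 with perchlorate, a difference of 0.70 (0.50 to 0.91, adjusted p = 0.184). The combined treatment averaged 12.04 ± 0.06 and controls 12.05 ± 0.01, so the diet arrays lay above and the perchlorate arrays below both. Ppa1, the cytosolic pyrophosphatase, read 11.53, 11.63 and 11.66 with the diet, against 10.55, 10.64 and 10.88 with perchlorate, a difference of 0.91 (0.62 to 1.20). It too had the diet above the control mean of 11.17 and perchlorate below it. Gcat, an enzyme of threonine breakdown, was at 0.95 (0.59 to 1.32). There the diet mean of 8.62 matched the control mean of 8.61, and perchlorate (7.67) matched the combined treatment (7.70).

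The same layout, diet near the control and perchlorate near the combined treatment, was seen in Creg1, a secreted glycoprotein of the endosomal pathway, with means of 10.98, 10.25, 10.16 and 10.89 for the diet, perchlorate, both and the control. Defb1, which encodes an antimicrobial peptide of epithelia, read 7.67, 8.35 and 8.56 with the diet, against 4.39, 6.25 and 5.80 with perchlorate, a difference of 2.71 (1.78 to 3.64), or 6.55-fold. Its mean was 4.75 with both and 8.76 in controls. Scnn1a, the alpha subunit of the epithelial sodium channel, was at 1.20 (0.68 to 1.73) on one probe set and 0.71 on the other. Tmem213, a small membrane protein gene, read 7.22, 6.95 and 7.71 with the diet, against 4.59, 6.42 and 4.14 with perchlorate, a difference of 2.24 (1.00 to 3.47). It had another layout: the combined treatment averaged 7.32, near the diet (7.29) and not perchlorate (5.05), and controls 8.29. For Tmem213, perchlorate replicate 42 (4.14) lay near the lowest signal. The rest of the 12 were C5h1orf210 (0.72), LOC102548472 (1.20), Kcnt1, a sodium-activated potassium channel (1.05), Inpp5j, a phosphoinositide phosphatase (0.79), Deptor, an inhibitor of mTOR (0.54), and Ddit3. Kcnt1 was higher on 2 of 3 probe sets and at -0.04 on the third.

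Ddit3, the transcription factor CHOP of the unfolded protein response, read 8.55, 8.88 and 8.78 with the diet, against 7.92, 8.21 and 7.95 with perchlorate, a difference of 0.71 (0.43 to 0.99, adjusted p = 0.212). Ddit3 is itself a member of the list of folding and stress genes of the endoplasmic reticulum, so the counts of that list include it. Of its 29 genes, 24 were above 0, and the median was 0.14, or 0.09 without perchlorate replicate 42. In 9 (31.0%, beside 6.43% of all genes) all diet arrays lay above and in 1 (3.45%, beside 7.42%) all below. The list's mean was 11.62, 11.68 and 11.63 in the diet arrays, against 11.62, 11.47 and 11.32 in the perchlorate arrays, so that diet replicate 32 and perchlorate replicate 39 overlapped. In controls it was 11.59 to 11.74, a range that held all 3 diet arrays. Among the 9, Sdf2l1 was at 0.44 (0.17 to 0.72), Herpud1, a part of the degradation machinery, at 0.68 (-0.03 to 1.38), and the chaperone gene Hspa5 at 0.14 (-0.03 to 0.30). Eif2ak3, the stress kinase PERK, went the other way at -0.31 (-0.59 to -0.04). Respiratory chain genes had the same median, 0.14, with 21 of 26 above 0, 11 (42.3%, beside 6.43% of all genes) all above and 0 all below. Their differences were small, none over 0.28, with the succinate dehydrogenase genes Sdha and Sdhb at 0.21 and 0.22. The list's mean in diet replicate 32 (11.57) lay inside the perchlorate range of 11.50 to 11.58.

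Genes that answer to the oxidative stress factor NRF2 were in part higher with the diet, 5 of 23 (21.7%, beside 6.43% of all genes) with all arrays above and 1 (4.35%, beside 7.42%) with all below. Their median was 0.09, or 0.06 without perchlorate replicate 39. The list's mean log2 signal was 8.99 to 9.09 in the diet arrays and 8.85 to 8.90 in the perchlorate arrays. In controls it was 9.14 to 9.30, so both treatments lay below the control range. Nqo1, a quinone reductase, read 10.64, 10.24 and 10.16 with the diet, against 9.27, 9.84 and 9.13 with perchlorate, a difference of 0.94 (0.39 to 1.49, adjusted p = 0.331). Both subunits of the enzyme that limits glutathione synthesis were higher, Gclc at 0.55 (0.18 to 0.92), with a dim second probe set at -0.20, and Gclm at 0.35 (0.13 to 0.57). In the retinoid list 2 of 22 genes had all diet arrays above and 1, the retinol dehydrogenase gene Dhrs9 (-0.49), all below, shares of 9.09% and 4.55% that are near those of all genes. Aldh1a3, which makes retinoic acid, was at 1.17 (0.40 to 1.94), and Crabp1, which binds it in the cell, at 1.28 (0.42 to 2.14). Aldh1a3 averaged 10.15 with the diet and 8.98 with perchlorate, with both together at 8.32 and controls at 10.80. In the list of amino acid and one-carbon enzymes 4 of 31 (12.9%, beside 6.43% of all genes) were all above and 3 (9.68%, beside 7.42%) all below. Above were, among others, Shmt1, a serine hydroxymethyltransferase, at 0.84 (0.47 to 1.22) and Bcat2, which starts the breakdown of branched-chain amino acids, at 0.47 (0.24 to 0.71). Below were Aldh1l2, a mitochondrial folate enzyme, at -0.82 (-1.42 to -0.23), and the glutamine enzyme genes Gls2 (-0.21) and Glul (-0.19).

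Differences of great size were not always separations of the groups. Scd, a fatty acid desaturase gene, had the highest difference of all genes, 3.04 (-0.80 to 6.87), yet read 9.71, 10.95 and 12.46 with the diet, against 5.58, 6.11 and 12.32 with perchlorate. Perchlorate replicate 42 lay above 2 of the 3 diet arrays. The adipocyte markers varied in the same arrays: their mean was 8.33, 8.80 and 9.29 with the diet, against 7.82, 7.43 and 9.30 with perchlorate. Of 17 adipocyte genes 16 were above 0, with a median of 0.26, but 0 separated the groups. That median was 0.78 without replicate 42, 0.51 without diet replicate 32 and 0.17 without perchlorate replicate 39. Without replicate 42 the fat and muscle enzyme gene Car3 was called at 2.53 (adjusted p = 0.0263). Their part in Scd was not tested. Fam111a, at 2.14 (-1.16 to 5.44), fell into high and low arrays in both groups, 13.19, 13.91 and 7.63 with the diet, against 7.64, 7.75 and 12.92 with perchlorate. The C cell list had a median of 0.02, with 11 genes above 0 and 9 below. In 2 of its 20 genes (10%, beside 6.43% of all genes) all diet arrays lay above. In 1 (5%, beside 7.42%) all lay below. Ret, the receptor gene of C cells, was at 1.12 (0.45 to 1.79) and Sst, somatostatin, at 1.86 (0.01 to 3.72). Other probe sets of Ret were at 0.89, without overlap, and at 0.86, with overlapping arrays. The gene with all diet arrays below was Gfra1, at -0.66 on one probe set and -0.40 on the other. Calca was at 0.02 (-0.30 to 0.34).

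Most genes that stood high with the combined treatment were lower with the diet than with perchlorate, and most that stood low with it were higher. Genes were sorted by the difference between the diet with perchlorate and the control at day 14, using 6 arrays that take no part in the comparison. This sorting was chosen after the data were seen. Of 694 genes higher by more than 1 with the combined treatment, 601 were lower with the diet than with perchlorate and 93 higher. Their median was -0.31, beside -0.01 over all genes, and 159 (22.9%, beside 7.42% of all genes) had all diet arrays below the perchlorate arrays while 3 (0.432%, beside 6.43%) had all above. Of 244 genes lower by more than 1 with the combined treatment, 166 were higher with the diet and 78 lower. Their median was 0.25, with 36 (14.8%, beside 6.43% of all genes) all above and 4 (1.64%, beside 7.42%) all below. With the limit at 2 in place of 1, 82 of 88 higher genes were lower with the diet (median -0.54), and 9 of 9 lower genes were higher with it (median 0.98).

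The arrays separated by group in these 2 sets. The mean log2 signal over the 694 genes was 8.12, 8.24 and 8.02 in the diet arrays, against 8.47, 8.30 and 8.57 in the perchlorate arrays, with 8.71 to 9.01 with both and 7.31 to 7.42 in controls. Over the 244 genes it was 7.73, 7.77 and 7.92 in the diet arrays, against 7.56, 7.50 and 7.51 in the perchlorate arrays, with 6.98 to 7.34 with both and 8.25 to 8.58 in controls. In both sets the diet arrays lay between the control arrays and the perchlorate arrays, and the perchlorate arrays between the diet arrays and those of the combined treatment, without overlap. The places of the control and the combined treatment at the ends are fixed by the choice of genes. Without perchlorate replicate 42 the median of the 244 genes was 0.16. Across all 14217 genes the 2 differences had a Pearson correlation of -0.372 and a Spearman correlation of -0.302. These are descriptions across genes, which are not independent replicates.

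**Figure D4:**
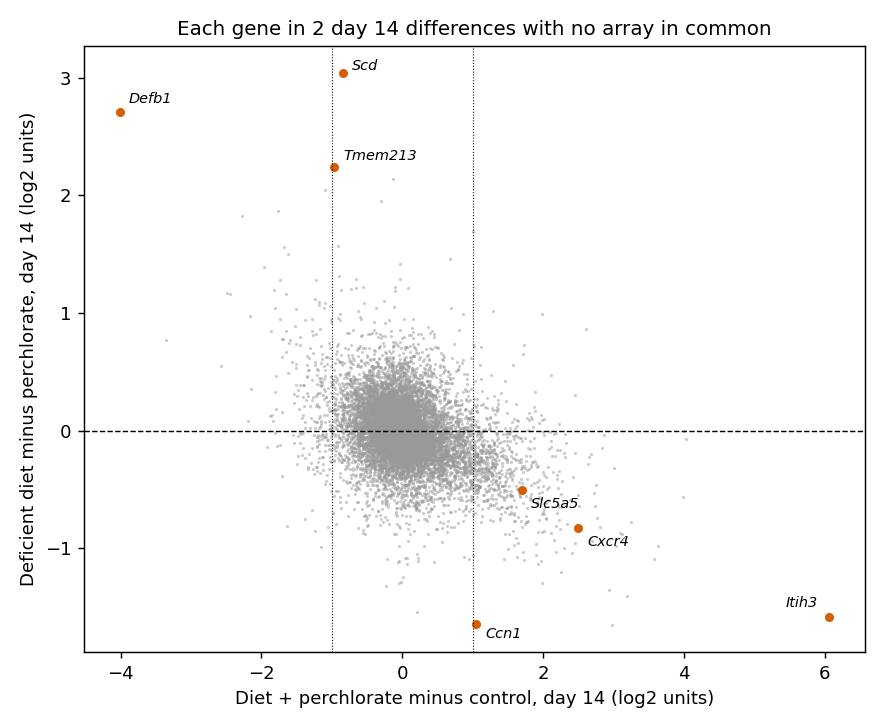
Each of 14217 genes by its difference between the diet with perchlorate and the control (horizontal axis) and its difference between the diet and perchlorate (vertical axis), both at day 14 in log2 units, from arrays that are not shared. Beyond the dotted lines at -1 and 1 the points lean downward on the right (median -0.31) and upward on the left (median 0.25).

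The 2 lists taken from genes that earlier results of these data had shown to be high or low in iodide shortage gave the same order and are not independent of it. The 14 high genes had a median of -0.50, with 6 (42.9%, beside 7.42% of all genes) all below and 0 all above. The 14 low genes had a median of 0.56, with 5 (35.7%, beside 6.43% of all genes) all above and 0 all below, and it was 0.31 without diet replicate 34 and 0.34 without perchlorate replicate 42. Among the high genes Ninl, a centrosomal protein gene, was at -0.82 (-1.21 to -0.43) and Mab21l3 at -0.74 (-1.14 to -0.34). Among the low genes C13h1orf116 was at 0.98 (0.46 to 1.5).

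The same comparison at day 1, on other arrays, set 2 months and 1 day of the diet against 1 day of perchlorate. There 2 of 31042 probe sets passed in limma (0.00644%), and 3936 had an unadjusted p below 0.05. Itih3 was higher with the diet there: it read 9.44, 9.06 and 9.06 in the diet arrays, against 7.01, 7.41 and 7.39 in the perchlorate arrays. The perchlorate arrays of day 1 lay close to the control mean of 7.01, and the diet arrays lay above it. The difference was 1.92 (SE 0.28, adjusted p = 0.0162), and its call was lost in 5 of 9 alternatives, among them the fit without perchlorate replicate 18 (1.98, adjusted p = 0.0794). The second call was a dim probe set of Mark4, a microtubule kinase gene, at -1.56 (adjusted p = 0.00251), which 1 of the gene's other 2 probe sets matched in direction without passing (-0.89) and the other did not (0.38). The number called was 276 without perchlorate replicate 16, 19 without replicate 15 and 1 without diet replicate 8, diet replicate 9 or perchlorate replicate 18.

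The difference between diet and perchlorate was then compared between the days. Itih3 alone passed, 1 of 31042 probe sets (0.00322%), and 2002 had an unadjusted p below 0.05. Its difference at day 14 minus that at day 1 was -3.51 (SE 0.40, adjusted p = 0.000587), as it was higher with the diet at day 1 and lower with the diet at day 14. That call held in each of 15 alternatives, with values between -3.82 and -3.11, and was -3.56 without perchlorate replicate 18 (adjusted p = 0.00229) and without both that array and control replicate 22 (adjusted p = 0.00472). Slc5a5 was at 0.14 on day 1 and -0.51 on day 14, and the difference between the days did not pass. Across 14217 genes the day 14 and day 1 differences had a Pearson correlation of 0.0114 and a Spearman correlation of 0.0414.

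**Figure D5:**
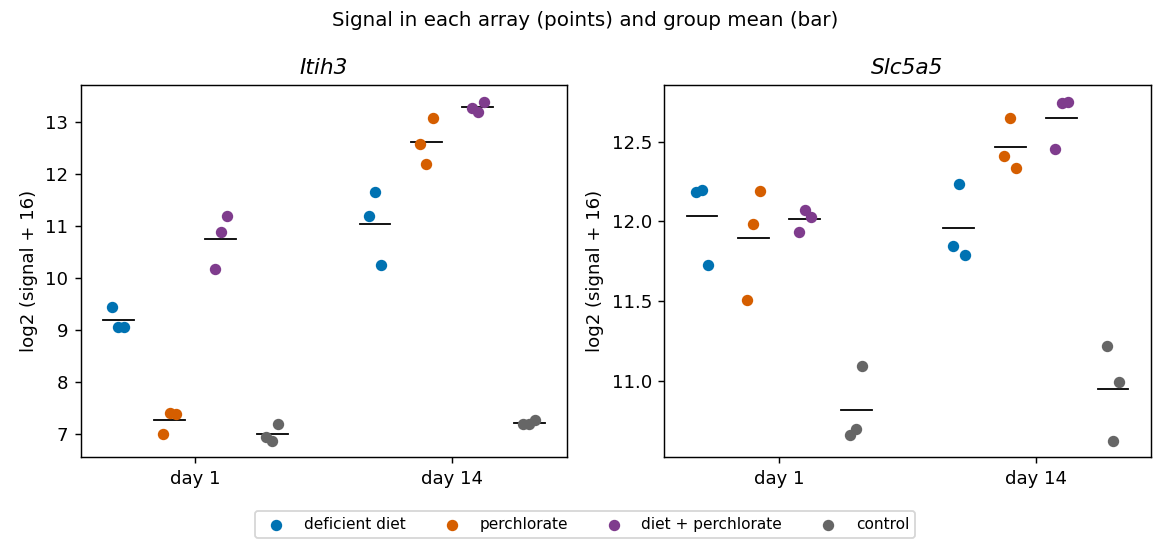
Log2 signal (intensity plus 16, vertical axis) of Itih3 and Slc5a5 in all 24 arrays by day (horizontal axis) and treatment, with points for arrays and bars for means of 3. Itih3 has its diet arrays above its perchlorate arrays at day 1 and below them at day 14, whereas the day 1 arrays of Slc5a5 overlap.

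Promoters were searched for 25 genes, the 24 with the smallest p and Slc5a5, of which 19 had an entry. The motifs were the cAMP response element TGACGTCA, the AP-1 site TGANTCA, the antioxidant element TGACNNNGC, the E2F site TTTCCCGC and the NKX2-1 core CTCAAG, each on both strands. The AP-1 and antioxidant patterns can share letters. The antioxidant pattern was found in 4 of the 19 promoters, those of Oxct1, LOC102548472, Itih3 and Htra1, and in 12.1% of 33469 RefSeq rat promoters of the same length. AP-1 was found in 2, C5h1orf210 and Ddit3 (7.33% of all promoters), the NKX2-1 core in 2, Ddit3 and Kcnt1 (15.8%), and the cAMP response element and the E2F site in 0 (1.83% and 0.974%). In 12 promoters none was found. In Itih3 the match began 60 bases before the start, and in Oxct1 at base 11 after it. No gene had passed the test that was to choose the promoters, so these were taken after their values were seen, and a match is a description of letters, not of a bound site.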

How the data were processed

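Thyroid RNA of 24 samples in 8 groups of 3 was measured on Affymetrix arrays. The deposited values are probe set intensity values made by the authors with GCOS (version not given here), per the submitters' processing notes. Detection calls were not used. Of 31099 probe sets, 57 array controls were left out. Intensities plus 16 were put on the log2 scale and quantile normalized over the 24 arrays. limma 3.58.1 in R 4.3.3 was fitted to the 12 arrays of day 14, whose 4 groups share 1 estimate of the spread, with a mean-variance trend. Results on day 1 and between days came from a fit of all 24 arrays. Tests were two-sided, with Benjamini-Hochberg adjustment over 31042 probe sets and a threshold of 0.05. No pairing was used. The number of arrays limits the precision.

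By the platform's annotation, 20826 probe sets had 1 gene symbol, 436 several and 9780 none. A gene was represented by its brightest probe set, and lists were described over 14217 genes. Genes named were the 12 with the smallest p in each direction, since none passed, every measured gene of hormone synthesis and up to 4 per list by smallest p. Scd, Fam111a, Cthrc1, Aspg, Car3, Mki67, Top2a, Hspa5, Herpud1, Sdha, Eln, Lama4, Col4a2, Tmem213, Pde4d, P4ha3, the lysyl oxidases, Lama3, Lamb3, Dhrs9, Gls2 and Glul were added after their values were seen. The comparison and the 37 lists (780 genes, 703 measured) were chosen with earlier results of these data known. Promoters are from RefSeq, build GRCr8. The fit was also run on simulated data, with known changes in probe sets above the median signal and independent noise. That run does not speak to dim probe sets or to tissue content that differs between arrays.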

Additional observations from a re-analysis of the deposited data

Results flagged for a closer look

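Itih3 was singled out because the difference between the diet and perchlorate itself differed between the days. It was 1.92 log2 units higher with the diet at day 1 and 1.59 units lower with the diet at day 14 (-1.59), a difference between the days of -3.51 (SE 0.40, limma adjusted p = 0.000587). All 3 diet arrays lay above all 3 perchlorate arrays at day 1, and all 3 lay below them at day 14. Perchlorate had lasted 1 day in the first case and 14 days in the second, and the diet 2 months longer in both.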

How the results depend on the processing

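The count of 0 probe sets at day 14 stayed 0 in 15 of 17 alternatives, with a smallest limma adjusted p between 0.0712 and 0.486 and between 1206 and 2478 probe sets at an unadjusted p below 0.05. Leaving out 1 array gave counts of 0 to 3. Without perchlorate replicate 40 it was 1 (Tagln). Without perchlorate replicate 42 it was 3, namely Car3 (2.53), Oxct1 (0.80) and a probe set with no symbol (-1.60), with adjusted p between 0.0251 and 0.0263. At day 1 the count of 2 was 1 without the 2 arrays that stand apart, and 1 to 276 with 1 array left out. The difference between days gave 1 to 3 calls with 1 array left out, 3 of them without day 1 perchlorate replicate 16 or day 14 perchlorate replicate 42 and 2 without day 14 diet replicate 33. The causes were not tested. The Itih3 difference at day 14 ran from -1.90 to -1.20 and that of Slc5a5 from -0.65 to -0.41. No paired analysis was possible because the groups share no replicate numbers. The 3 arrays a group and the noise of dim probe sets limit what could be detected.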
